A study of Mus musculus with 9 samples.

Results

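Blood vessel endothelium carries surface proteins that identify it and that hold leukocytes on its wall, and 8 genes of this kind were looked for in mouse tail skin. Pecam1, Cdh5, Tek, Eng and Icam2 are endothelial surface and junction genes, and Selp, Icam1 and Vcam1 are adhesion genes that endothelium induces in inflammation. The members were all array features that the annotation names by 1 of these symbols. Of the 8 genes, 4 were found, on 6 of the 42624 features of the array: Selp and Icam2 by 1 cDNA clone each, and Eng and Pecam1 by 2 clones each. Cdh5, Tek, Icam1 and Vcam1 were matched by no feature, by symbol or by gene identifier, and were not analysed here. A value on all 9 arrays was present for 5 of the 6 clones, and the second clone of Pecam1 lacked lymphedema array 2.

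The mice were female SKH-1 hairless animals, 3 weeks old by the study's account, and distal tail skin was taken on day 14. Normal mice had no surgery. Lymphedema followed a skin incision near the tail base with cautery of the lymphatic trunks, found with methylene blue. Surgical sham mice had the incision and the methylene blue but no cautery, so incision and dye were common to both surgical states. Each state was represented by 9 mice in 3 pools of 3, and each pool was hybridized once, in 2 colors, against RNA of whole e17.5 embryos. The sample unit is thus a pool of whole skin separated from cartilage, and no cell type was isolated. In such skin, a change in the number of endothelial cells cannot be told apart from a change in RNA per cell.

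Leukocytes leave the blood in steps. P-selectin, the product of Selp, is stored in endothelial cells and platelets and is brought to the surface, where leukocytes roll on it through carbohydrate-bearing ligands. Integrins of the leukocyte then bind ICAM and VCAM proteins and arrest the cell, which passes between endothelial cells through contacts that include PECAM-1, VE-cadherin (Cdh5) and ICAM-2. Endoglin, the product of Eng, is a co-receptor for TGF-beta family ligands that is abundant on vessels, and Tek is the receptor of the angiopoietins. PECAM-1 is also carried by platelets and leukocytes.

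RefSeq promoter sequence (GRCm38.p6) was found for Selp and Eng and for neither Pecam1 nor Icam2. The pair is shown because no such sequence was found for the other measured members. Both are also the members that passed the test between lymphedema and normal skin. Each run is the 250 bases before the gene's annotated start, 5′ to 3′ on the plus strand, and capitals mark GGAAG or its reverse complement CTTCC, the core bound by ETS factors, a family prominent in endothelium. The Selp sequence lies at chr1:164115014-164115263 and the Eng sequence at chr2:32646345-32646594.
Selp: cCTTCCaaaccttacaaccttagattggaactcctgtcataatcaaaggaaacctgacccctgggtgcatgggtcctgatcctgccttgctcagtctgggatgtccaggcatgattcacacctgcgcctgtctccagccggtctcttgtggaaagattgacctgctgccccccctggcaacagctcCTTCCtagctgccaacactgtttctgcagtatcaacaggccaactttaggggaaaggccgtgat
Eng: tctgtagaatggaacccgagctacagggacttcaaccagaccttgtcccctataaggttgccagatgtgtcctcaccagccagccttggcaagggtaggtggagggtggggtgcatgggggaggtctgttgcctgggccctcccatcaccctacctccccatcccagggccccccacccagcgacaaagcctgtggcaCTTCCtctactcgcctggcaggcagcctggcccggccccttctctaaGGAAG
Both promoters held 2 matches to this core. Among 32851 promoters of the same length, 64.1% held at least 1 match and 29.4% held 2 or more, so the letters are common. The GATA motif AGATAA, present in 9.99% of promoters, the TATA box TATAAA, present in 12.4%, and the NF-kappaB motif, present in 7.25%, had no match on either strand in these 2 windows. The arrays do not measure promoter activity or binding.

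All values below are log2 ratios of tail skin over embryo RNA, centered on each array's median, so a positive value means more RNA in tail skin. The deposited ratio runs the other way and was turned. On each array 31 to 33 genes typical of embryos lay below the array's median, with medians of −3.55 to −2.73, and 12 to 14 of 15 genes typical of adult skin lay above it, with medians of 2.22 to 2.74. The log base is not stated and was taken as 2, and the folds rest on that. A ratio to embryo RNA orders states within a gene and gives no level of one gene against another. The arrays divide by their missing values: 186 features had a value on all normal arrays and lymphedema array 1 and on no other array. The reverse pattern was found in 1 feature. No other set of 4 arrays had more than 45 features with values on all 4 and on no other array. For those other divisions the reverse pattern was not counted. Normal arrays and lymphedema array 1 are called the first slide set here, and lymphedema arrays 2 and 3 and the sham arrays the second. The labels name no such sets. All normal arrays lie in one and all sham arrays in the other, so sham and normal skin are tied only through the lymphedema arrays. The pools are separate mice, and n = 3 per state unless an array is said to be missing or left out.

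Selp and Eng were higher in lymphedematous than in normal skin, by 2.17-fold and 1.90-fold. Pecam1 had a difference of similar size that did not pass the test, and Icam2 differed little. With limma and Benjamini-Hochberg adjustment over 8644 genes, 2 of the 4 measured members passed at an adjusted p under 0.05, both higher, where 3.44% of all genes passed and 2.83% were higher. At an unadjusted p under 0.05, 3 of the 4 passed, against 20.5% of all genes, and SAM (significance analysis of microarrays) at 5% called the same 3, Selp, Eng and Pecam1, against 21.1% of all genes. The 3 lymphedema arrays lay above the 3 normal arrays for 3 of the 4 members, a pattern that 23.6% of all genes had. The median difference of the 4 members was 0.95 and that of all genes 0.10.

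Selp, the inducible adhesion gene, gave 1.15, 1.35 and 0.90 on the normal arrays. The lymphedema arrays gave 2.01, 2.45 and 2.30, and the sham arrays 2.10, 1.97 and 2.15. Both surgical states lay wholly above normal skin and overlapped each other. The means were 1.13 ± 0.22 in normal skin, 2.25 ± 0.22 in lymphedema and 2.07 ± 0.097 in sham (SD, n = 3). Lymphedema exceeded normal skin by 1.12 (95% confidence interval 0.71 to 1.53, adjusted p = 0.0175 in limma), a fold of 2.17 with an interval of 1.64 to 2.88. Blocking on slide set gave a difference of 0.88 (adjusted p = 0.290), which is the value of lymphedema array 1 over the normal arrays of its own set. It also lost its call without normal array 1, 2 or 3 or lymphedema array 2 or 3, at differences of 1.01 to 1.23 and adjusted p-values of 0.0505 to 0.0981.

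Eng, averaged over its 2 clones, gave −0.54, −0.25 and −0.22 on the normal arrays. The lymphedema arrays gave 0.49, 0.57 and 0.70, above every normal and every sham array. The sham arrays gave 0.38, −0.29 and 0.40, so that sham arrays 1 and 3 lay above all normal arrays and sham array 2 among them. The means were −0.34 ± 0.18, 0.59 ± 0.11 and 0.16 ± 0.39 for normal, lymphedema and sham (SD, n = 3). Lymphedema exceeded normal skin by 0.92 (95% confidence interval 0.46 to 1.39, adjusted p = 0.0399 in limma), a fold of 1.90 with an interval of 1.38 to 2.61. The study discusses endoglin among genes changed on these same arrays, so this call is not independent of it. Without any 1 of the normal or lymphedema arrays the call was lost, at differences of 0.82 to 0.98 and adjusted p-values of 0.0918 to 0.151, and blocking on slide set gave 0.83 (adjusted p = 0.356).

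The clones of Eng moved together. The first ran from −0.75 to −0.62 in normal skin and from 0.039 to 0.41 in lymphedema, and the second from −0.33 to 0.29 and from 0.73 to 1.04. Neither clone's lymphedema range touched its normal range, a separation that 21.7% of features had in this direction. Sham array 2 was the lowest sham array in both clones, at −0.83 and 0.26. Over the 9 arrays the clones correlated at r = 0.855, a description of values that share their arrays. Taken as single features, of which 30702 were tested and 2.94% passed, the clones differed by 0.97 (adjusted p = 0.0606 in limma) and 0.88 (adjusted p = 0.0672), so Eng passed only as a mean of its clones, and Selp was the 1 member clone that passed.

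**Figure D1:**
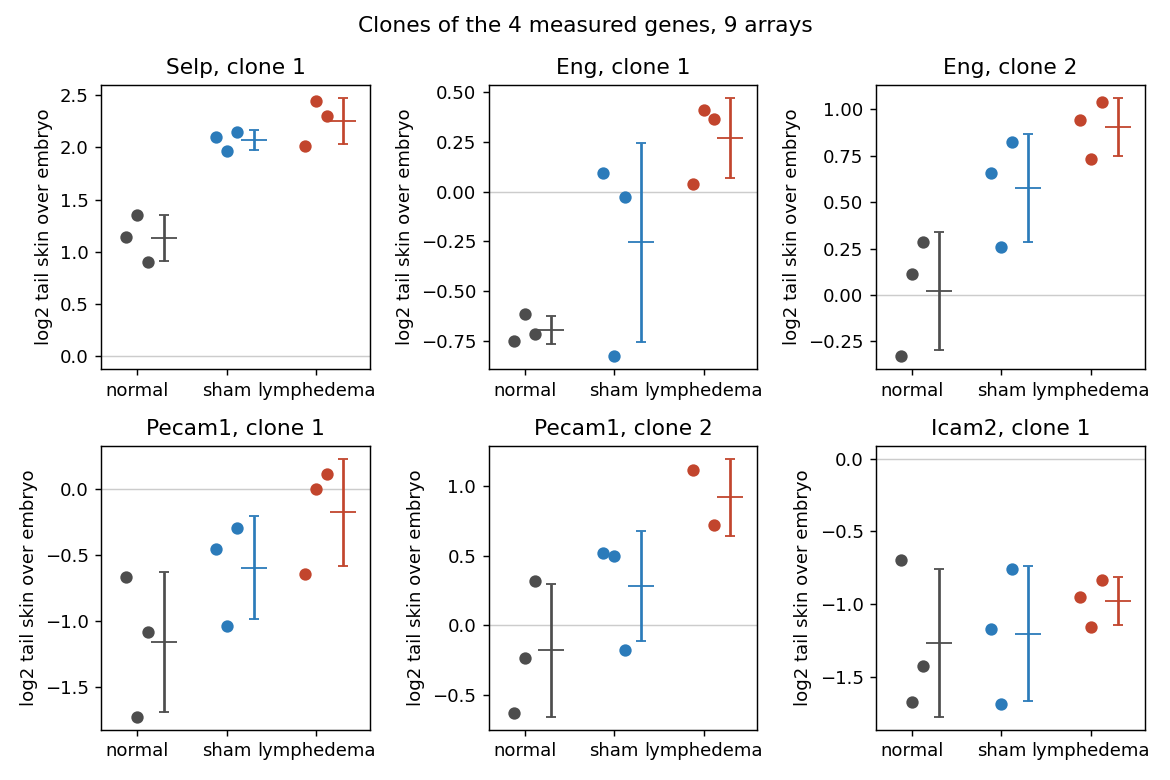
Log2 ratio of tail skin over embryo for each of the 6 clones (panels), with arrays grouped by state on the horizontal axis; points are arrays and the bar beside them is the mean ± SD. Selp lies between 0.90 and 1.35 in normal skin and at or above 1.97 in both surgical states, whereas Icam2 overlaps among all 3 states.

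Pecam1 encodes the junctional and leukocyte-passage molecule PECAM-1. Its complete clone gave −0.67, −1.72 and −1.08 on the normal arrays and −0.64, 0.004 and 0.11 on the lymphedema arrays. The sham arrays gave −0.45, −1.03 and −0.30. Lymphedema array 1 lay only just above normal array 1, while the other lymphedema arrays lay far above it. The difference between lymphedema and normal skin was 0.98 (95% confidence interval 0.32 to 1.65, adjusted p = 0.100 in limma) and was 0.52 with a slide set block (adjusted p = 0.684).

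The second clone of Pecam1 gave −0.63, −0.23 and 0.32 in normal skin, 1.12 and 0.72 on lymphedema arrays 1 and 3, and 0.52, 0.50 and −0.18 in sham. Lymphedema again lay above normal skin without overlap. The order of arrays within the states was not that of the first clone: lymphedema array 1 was the lowest lymphedema array in one clone and the higher of its pair in the other. The clones correlated at r = 0.309 over the 8 arrays with both values. In a fit that admits missing values, in which the absent array is dropped, the second clone differed by 1.10 (95% confidence interval 0.39 to 1.81, adjusted p = 0.106 in limma). With the clones averaged per array in that fit, Pecam1 passed in limma at 0.89 (adjusted p = 0.0495), while Eng no longer did (adjusted p = 0.0510). On lymphedema array 2 that average was the first clone alone, at 0.004. The first clone minus the second averaged −0.99 over the 8 arrays, so the average mixes clones of unlike level. With missing values imputed Pecam1 passed at 1.00 (adjusted p = 0.0275). SAM called it as well, at q = 0.0232.

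Icam2, the ICAM that resting endothelium carries, gave −0.70, −1.67 and −1.43 in normal skin, −0.95, −1.16 and −0.83 in lymphedema and −1.17, −1.68 and −0.76 in sham. The 3 states overlapped, and normal array 1 was the highest of all arrays. Lymphedema minus normal was 0.29 (95% confidence interval −0.34 to 0.91, adjusted p = 0.610 in limma), an interval that reaches both 0 and a rise near the size of those of Selp and Eng. It was 0.57 without normal array 1, 0.082 without normal array 2 and 0.027 with quantile normalization. Icam2 and Pecam1 are neighbors on chromosome 11, 266.1 kb apart.

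Sham against normal skin compares incision and dye with no surgery, on the same normal arrays as above. All sham arrays lie in the other slide set from the normal arrays, so the comparison also spans both slide sets. In limma 0 of the 4 members passed, as did 0% of all genes, and SAM called 0, against 0.162% of genes. At an unadjusted p under 0.05, 2 members passed, Selp and Eng, against 7.92% of genes. Selp was higher by 0.94 (95% confidence interval 0.54 to 1.35, adjusted p = 0.196), and it was the 1 member whose sham and normal arrays did not overlap, which 9.72% of genes did in this direction. Eng differed by 0.50 (95% confidence interval 0.038 to 0.96, adjusted p = 0.573), Pecam1 by 0.56 (adjusted p = 0.688) and Icam2 by 0.061 (adjusted p = 0.976). Blocked on slide set, the value for Selp was 0.58 (adjusted p = 0.999) and that for Pecam1 turned to −0.13.

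Lymphedema against sham skin addresses the cautery, and 0 of the 4 members passed in limma, where 0.0231% of genes did. At an unadjusted p under 0.05, 0 members passed, against 7.44% of genes, and SAM called 0, against 0.0231%. For Selp the difference was 0.18 (95% confidence interval −0.23 to 0.59, adjusted p = 0.847), an interval that lies below its differences of 1.12 and 0.94 between the surgical states and normal skin. Blocked on slide set it was 0.30 (adjusted p = 0.844), and the block also brought the difference of sham from normal skin down to 0.58, inside that interval. Eng differed by 0.43 (95% confidence interval −0.035 to 0.89, adjusted p = 0.671) without overlap of the arrays, a separation that 6.63% of genes had in this direction. Pecam1 differed by 0.42 (adjusted p = 0.767), or 0.65 when blocked on slide set. Without sham array 2 the difference was 0.20 for Eng and 0.20 for Pecam1. For Icam2 the difference was 0.23 (adjusted p = 0.874). In each of the 4 members the mean order was normal, sham, lymphedema, and of the neighboring steps none passed the adjusted test.

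**Figure D2:**
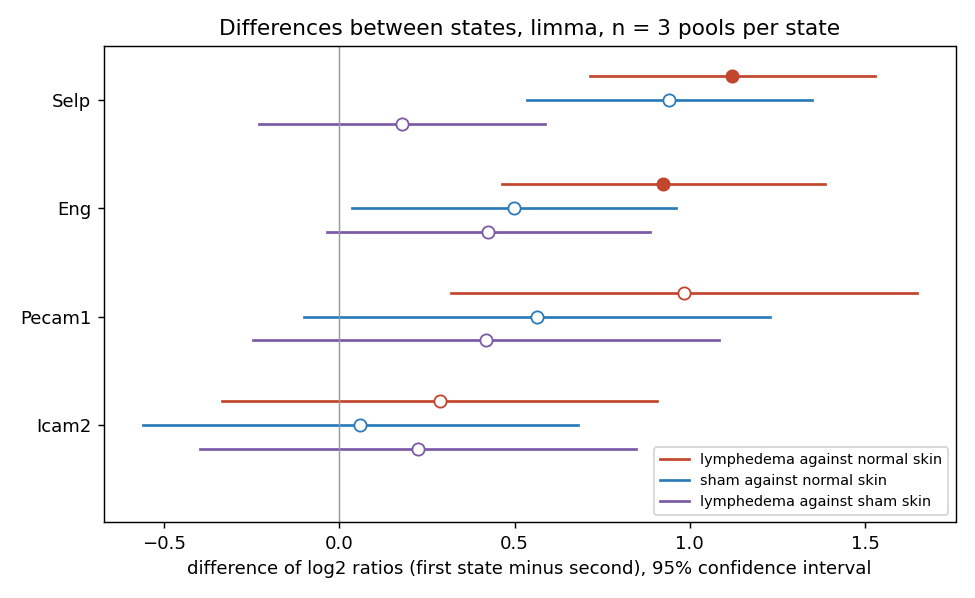
Differences of log2 ratios between states for the 4 measured members; each point is the first state minus the second, lines are 95% confidence intervals from limma, and filled points passed an adjusted p under 0.05. Only Selp and Eng in lymphedema against normal skin are filled, at 1.12 and 0.92.

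Genes around the members were taken from 5 lists, which held 111 symbols, of which 69 were measured. Between lymphedema and normal skin 5 of the 69 passed, all higher, or 7.25% against 3.44% of all genes. The median difference of the 69 was 0.13, near the 0.10 of all genes, and 50 of them were positive. SAM called 22 of the 69, 18 higher and 4 lower, or 31.9% against 21.1% of all genes. In both other comparisons limma called 0 of them and SAM 0, with 12 at an unadjusted p under 0.05 for sham against normal (17.4% against 7.92% of all genes) and 6 for lymphedema against sham (8.70% against 7.44%).

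Endothelial identity genes held 4 of the 5 calls, among 21 measured (19% against 3.44% of all genes), with a median difference of 0.40 and 15 positive. Gpihbp1, which anchors lipoprotein lipase on capillary endothelium, gave −1.06, −1.11 and −1.16 in normal skin and 0.38, −0.17 and −0.19 in lymphedema, a difference of 1.12 (SE 0.22, adjusted p = 0.0275 in limma). Ly6c1, a surface antigen of mouse endothelium and of some leukocytes, gave 2.49, 2.72 and 3.10 in normal skin and 4.09, 3.60 and 3.91 in lymphedema, a difference of 1.10 (SE 0.21, adjusted p = 0.0275). In both genes lymphedema array 1, which shares its slide set with the normal arrays, was the highest of its state. Among the members that array was the lowest of its state for Selp, Eng and the complete clone of Pecam1, at 2.01, 0.49 and −0.64. For Icam2 it was in between.

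Kdr, the main VEGF receptor of endothelium, rose by 0.99 (SE 0.23, adjusted p = 0.0445 in limma), from −0.21, −0.56 and −0.33 to 0.82, 0.68 and 0.37. Mcam, an adhesion molecule of endothelium, pericytes and smooth muscle, rose by 0.96 (SE 0.22, adjusted p = 0.0383), from −0.75, −0.20 and −0.24 to 0.65, 0.64 and 0.38. The other 17 genes of this list did not pass in limma. Those with the largest positive differences were Clec14a, a surface lectin of endothelium, at 0.81 (adjusted p = 0.0676 in limma), Adgrf5 at 0.74, Egfl7 at 0.67 and Procr, the endothelial protein C receptor, at 0.66, and in all 4 the lymphedema and normal arrays did not overlap. At the other end Sox7 and Sox17, endothelial transcription factors, differed by −0.72 and −0.62, while Flt1, a second VEGF receptor, differed by 0.058 and Cd34 by −0.021. Sox7 gave 2.47, −0.14 and 1.41 in lymphedema and 1.82, 2.17 and 1.91 in normal skin (SE 0.54). Its states overlapped, and those of Sox17 did not. In all, 11 of the 21 had lymphedema arrays wholly above the normal arrays, a separation that 23.6% of all genes had. Another 2 lay wholly below, as did 881 of all 8644 genes. SAM called 9 higher and 1 lower, or 47.6% of the list against 21.1% of all genes. The calls for Gpihbp1, Ly6c1, Kdr and Mcam held in 11, 13, 6 and 7 of 20 alternatives, and blocked on slide set 0 passed, at differences of 1.49, 1.32, 1.19 and 1.05.

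The junction and diapedesis list had 1 call among 18 measured genes (5.56% against 3.44% of all genes), with a median difference of 0.12. This was Msn, encoding moesin, which ties membrane proteins such as ICAMs to actin in endothelium and leukocytes alike: it rose by 1.06 (SE 0.22, adjusted p = 0.0300 in limma), from −0.35, −0.24 and 0.33 to 1.13, 1.13 and 0.69, and the call held in 13 of 20 alternatives. Each of the calls for Gpihbp1, Ly6c1, Kdr, Mcam and Msn was lost without normal array 1 or 2 or any 1 lymphedema array, those of Gpihbp1, Kdr and Mcam also without normal array 3 and that of Kdr without sham array 2, at differences of 0.78 to 1.23 and adjusted p-values of 0.0505 to 0.178. The relatives of Msn, Ezr and Rdx, differed by −0.19 and 0.013 and did not pass. F11r and Ctnna1, a tight junction molecule and alpha-catenin, differed by 0.44 and 0.39 without passing.

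Among 7 measured genes of the selectin pathway 0 passed in limma, 3 passed at an unadjusted p under 0.05 and SAM called 3, all higher, each 42.9% of so few genes against 20.5% and 21.1% of all genes, and the median was 0.28. B4galt1 and St3gal4, enzymes that build carbohydrate ligands, differed by 0.59 (adjusted p = 0.0601 in limma) and 0.50 (adjusted p = 0.198), and Cd24a, a carrier of P-selectin ligands, by 0.44 (adjusted p = 0.145). Selplg, which encodes the principal leukocyte ligand of P-selectin, differed by −0.064. Of 5 measured integrin genes 0 passed in limma, 1 passed at an unadjusted p under 0.05 and SAM called 1, lower, each 20% of the list and near the shares of all genes, with a median of −0.083. Itgal, the alpha subunit that binds ICAMs, differed by −0.66 (adjusted p = 0.215), Itgb1 by 0.40 (adjusted p = 0.295) and Itgb3 by −0.21 (adjusted p = 0.720).

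The ligands, receptors and targets downstream of Tek and Eng gave 0 calls in limma among 18 measured genes, 4 at an unadjusted p under 0.05 (22.2% against 20.5% of all genes), 3 higher and 2 lower by SAM (27.8% against 21.1%), and a median of 0.14. These shares are near those of all genes. Grb7 and Dok2, adaptors that bind Tek, differed by −0.64 (adjusted p = 0.0777 in limma) and −0.61 (adjusted p = 0.105), and Tgfbr1, a receptor with which endoglin acts, by 0.61 (adjusted p = 0.213). Acvrl1, the endothelial receptor closest to endoglin, differed by 0.25, and the targets Id1, Id2 and Id3 by 0.45, 0.45 and 0.13, none past the test. Angpt1 and Angpt2, the ligands of Tek, differed by 0.027 and −0.10.

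**Figure D3:**
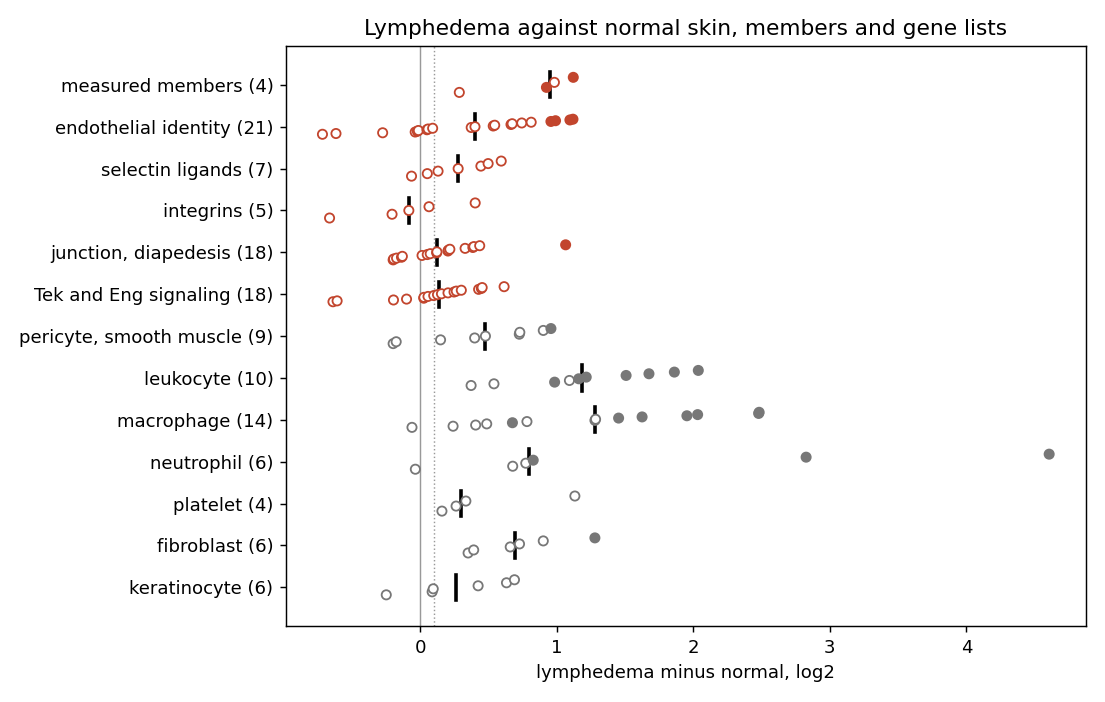
Lymphedema minus normal skin, log2, for each measured gene of the members, the 5 pathway lists (red) and lists of other cell types (gray), with the number measured in parentheses; filled points passed an adjusted p under 0.05, black bars are medians and the dotted line is the median of all genes. The endothelial identity genes spread from −0.72 to 1.12, and the leukocyte and macrophage medians, 1.19 and 1.28, lie to the right of theirs, 0.40.

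Other cell types of skin carry some of these genes or accompany them, and their markers moved in the same comparison. In lymphedema against normal skin 7 of 10 leukocyte, 7 of 14 macrophage and 3 of 6 neutrophil markers passed, all higher. Of all genes 3.44% passed and 2.83% were higher. SAM called 80% of the leukocyte, 78.6% of the macrophage and 83.3% of the neutrophil markers, all higher, against 21.1% of all genes. The leukocyte list, by its mean level, ran from −0.76 to −0.61 on the normal arrays, from 0.48 to 0.72 in lymphedema and from −0.81 to 0.50 in sham. Fcer1g and Ms4a6b, macrophage markers, differed by 2.48 each, Lcp1 and Coro1a, leukocyte markers, by 2.04 and 1.86, and S100a9 and S100a8 of neutrophils by 4.61 and 2.83. Their part in the results for the members was not tested.

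Sham arrays 1, 2 and 3 gave 2.10, 1.97 and 2.15 for Selp and −0.32, −0.81 and 0.50 for the mean of the leukocyte list. Both were highest on sham array 3 and lowest on sham array 2, and the list spread over a wider range. Eng and the complete clone of Pecam1 were also lowest of the sham arrays on array 2, at −0.29 and −1.03. The second clone of Pecam1 was lowest on sham array 3, at −0.18. The endothelial identity list was lowest on sham array 2, at 0.14, and the neutrophil and platelet lists on sham array 1. Platelets also store P-selectin, and of their 4 measured markers 0 passed in limma, 1 passed at an unadjusted p under 0.05 and SAM called 1, each 25% of the list against 20.5% and 21.1% of all genes. The platelet list ran from −1.64 to −0.70 in normal skin, from −1.06 to −0.62 in lymphedema and from −1.56 to −0.86 in sham, and the states overlapped. The overlap of normal skin with lymphedema rested on normal array 1. The list means of normal arrays 2 and 3, −1.48 and −1.64, lay below every lymphedema array. On normal array 1 Ppbp gave 0.039, against −3.13 and −3.44 on normal arrays 2 and 3. Pf4 had the largest difference of the 4 platelet markers, 1.13 (adjusted p = 0.0814 in limma).

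The endothelial identity list, by its mean, ran from −0.030 to 0.063 in normal skin, from 0.26 to 0.49 in lymphedema and from 0.14 to 0.42 in sham. Both surgical states lay above normal skin, as for Selp and for the neutrophil, fibroblast, and junction and diapedesis lists. In sham these 3 lists ran from 0.028 to 0.79, from −0.99 to −0.11 and from 0.27 to 0.33. In normal skin they ran from −0.40 to −0.26, from −1.28 to −1.19 and from 0.14 to 0.17. All sham arrays lie in the other slide set from the normal arrays. Of 9 symbols listed as markers of lymphatic endothelium, 0 matched a feature named by that gene alone, and they were not analysed here.

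**Figure D4:**
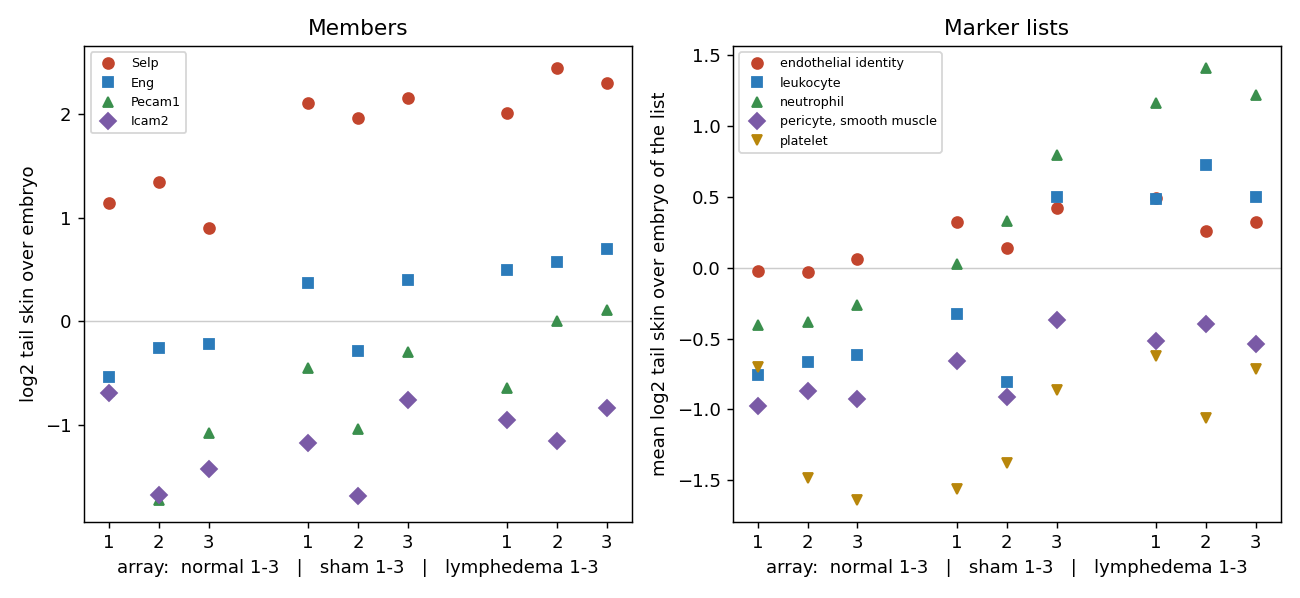
Log2 ratio of tail skin over embryo on each array for the 4 members (left) and mean log2 ratio for 5 marker lists (right), arrays 1 to 3 of normal, sham and lymphedema skin from left to right. Among the sham arrays, Selp, Eng, Icam2 and the complete clone of Pecam1, shown here, are lowest on array 2, at 1.97 for Selp. The endothelial identity, leukocyte and pericyte lists are also lowest there, at −0.81 for the leukocyte list. The neutrophil and platelet lists are lowest on array 1.

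The genes whose values ran most like each member over the 9 arrays were ranked by Pearson's r, given without a test because all genes share the arrays. Closest to Selp were Gm5177 (r = 0.970), Rassf8 (r = 0.9625) and Eif3l (r = 0.958). Closest to Eng were Col4a2, a basement membrane collagen (r = 0.977), H2-D1, a class I histocompatibility gene (r = 0.975), and Arhgdib, a gene abundant in leukocytes (r = 0.967). Closest to Pecam1 were Ube2n (r = 0.9685), Pdia2 (r = 0.959) and S1pr1, a sphingosine-1-phosphate receptor of endothelium and lymphocytes (r = 0.958). Closest to Icam2 were Ptpn6, a leukocyte phosphatase (r = 0.928), Lipa (r = 0.9235) and Aplnr, the apelin receptor of endothelium (r = 0.9195). Among the members, Selp and Eng correlated at 0.835. Pecam1, by its complete clone alone, correlated at 0.760 with Eng, 0.720 with Icam2 and 0.718 with Selp. Icam2 correlated at 0.409 with Eng and 0.260 with Selp.

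Col4a2 gave −2.10, −1.86 and −1.94 in normal skin, −0.91, −0.82 and −0.61 in lymphedema and −1.20, −1.78 and −0.78 in sham, and rose by 1.19 in lymphedema against normal skin (adjusted p = 0.0275 in limma). Sham array 2 was again the lowest sham array. Aplnr gave −1.80, −3.39 and −3.24 in normal skin and −1.93, −1.74 and −1.74 in lymphedema, with normal array 1 far above the other normal arrays, as in Icam2, and a difference of 1.00 (adjusted p = 0.217).

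**Figure D5:**
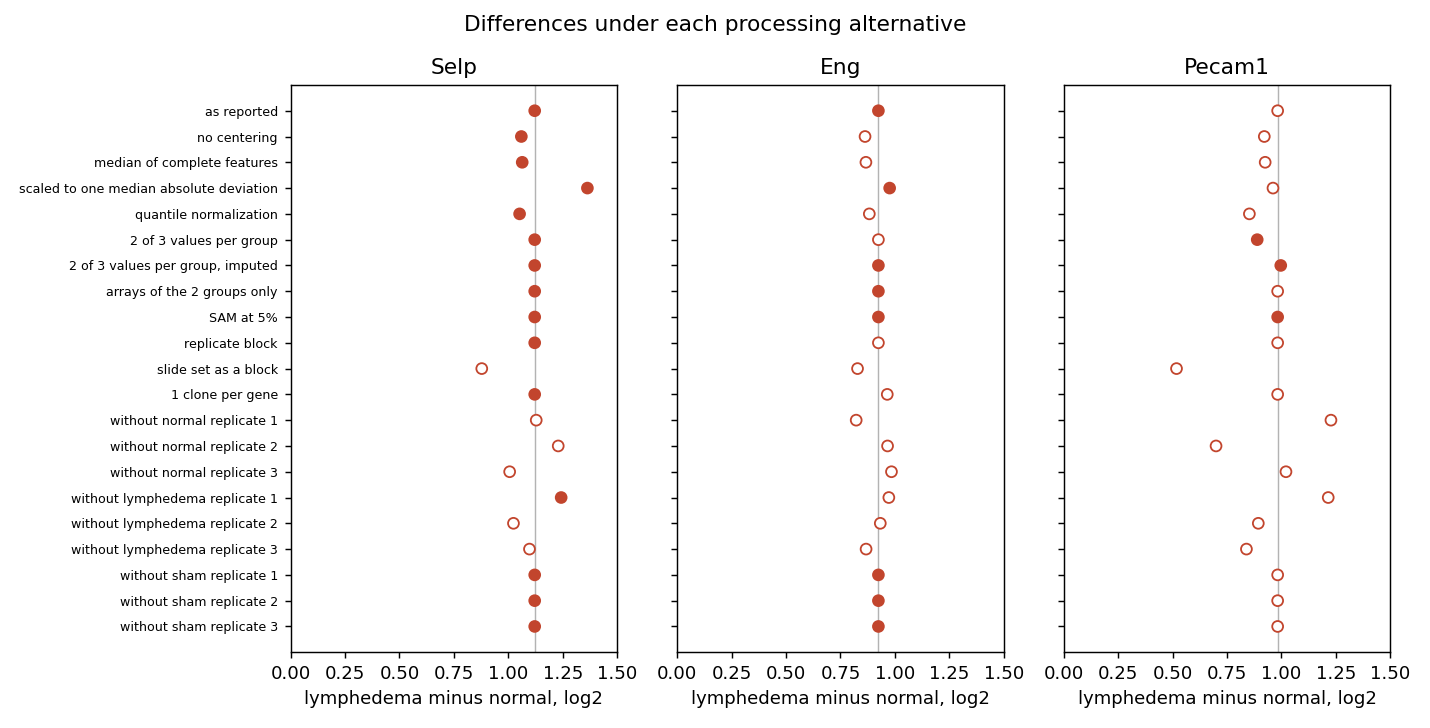
Lymphedema minus normal skin, log2, for Selp, Eng and Pecam1 (panels) as reported and under each of 20 processing alternatives (rows); filled points passed an adjusted p under 0.05 and the vertical line is the reported value. All points are above 0, Selp passes in 14 alternatives, Eng in 7 and Pecam1 in 3.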

How the data were processed

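Distal tail skin of normal, lymphedema and sham mice was compared on 9 cDNA arrays, grouped by the labels. The authors extracted features with GenePix, subtracted background and normalized dyes in Expressionist, and deposited 1 log ratio per feature and array, used here as log2. Their filter and imputation are not in the table, in which 1.34% to 12.6% of an array's values are missing, and the centering they applied is not stated. Labels put tail skin in Cy5 and the methods in Cy3, and the direction was settled from embryo and adult skin genes.

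The sign was turned, each array was centered on its median, and the 30702 features with all 9 values went into a linear model (limma 3.58.1, R 4.3.3, lmFit and eBayes, group only, all arrays). Clones of a gene were averaged, giving 8644 genes, and p-values were adjusted by Benjamini-Hochberg over all genes or all features at 0.05. The fit was tested on simulated data. Figures were drawn with matplotlib in Python. Of the features, 20678 are named by 1 gene, 953 by several and 20993 have no name here. The number of arrays limits the precision.

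The members and lists were chosen with earlier results of these data known. Genes named were the members, list genes past the threshold, the 3 largest differences per pathway list, at most 4 markers per cell type list and the 3 genes most correlated with each member. Flt1, Cd34, Sox7, Sox17, Clec14a, Adgrf5, Egfl7, Procr, Ezr, Rdx, Selplg, Acvrl1, the Id genes and the angiopoietins fall outside this rule and were chosen after their values were seen. Alternative settings left the values uncentered, set the median absolute deviations of the arrays equal, applied quantile normalization, admitted features having 2 of 3 values in each state (missing values left out, or imputed with k = 10), used just the compared states, blocked on replicate number or on slide set, took 1 clone per gene, left out each array, or used SAM at 5%. SAM took the median number of false calls over all 20 permutations. This was set after its mean had been seen to allow no call, since the observed division is among the permutations (smallest q = 0.0573 in lymphedema against normal skin). Centering on the median of complete features was added after seeing the data.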

Additional observations from a re-analysis of the deposited data

How the results depend on the processing

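The number of members called in lymphedema against normal skin was 2. It was 1 with no centering, with centering on the median of complete features, with quantile normalization, with 1 clone per gene and with the replicate block, 3 with SAM and with imputed values, and 0 when blocked on slide set. With features having 2 of 3 values it was 2, but Pecam1 entered and Eng dropped out. Leaving out 1 array in turn gave 0 to 2. For member clones the count was 1. It was 3 with scaling to one median absolute deviation and with the arrays of the compared states only, 4 with SAM, 0 when blocked on slide set, and 0 to 3 with an array left out. For genes of the 5 lists the count was 5. It was 3 with no centering, with centering on complete features, with features having 2 of 3 values per group and with 1 clone per gene, 2 with quantile normalization, 12 with the arrays of the compared states only, 1 with the replicate block, 22 with SAM, 0 when blocked on slide set, and 0 to 9 with an array left out. All these counts stayed at 0 in sham against normal and in lymphedema against sham skin under every alternative run. Scaling changes how much the median of all genes differs between lymphedema and normal skin, from 0.10 as reported to 0.042 with no centering and −0.022 with quantile normalization, and the share of calls that are higher from 82.5% to 73.3% and 60.9%. All 4 members, Gpihbp1, Ly6c1, Kdr, Mcam and Msn remained higher in lymphedema than in normal skin under all 20 alternatives, among them each scaling. Differences that changed sign were not past the threshold in any setting: Pecam1 in sham against normal was −0.13 when blocked on slide set, and Icam2 in sham against normal was −0.14 and −0.020 without normal array 2 and 3 and −0.16 without sham array 3. With each array left out, Icam2 ran from −0.16 to 0.35 in sham against normal and from −0.014 to 0.45 in lymphedema against sham, where the lowest was without sham array 2. The cause was not tested. Deviations of arrays with the same replicate number correlated at −0.247 to 0.298. Those of arrays with different numbers correlated at −0.341 to 0.2885, so the correlations did not set same-number arrays apart. The smaller counts with an array left out rest on fewer arrays. Dim probes could not be judged, since signal and background were not analysed here.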

Other observations

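Cells that support vessels from outside the endothelium were also measured. Of 9 pericyte and smooth muscle genes measured, 1 passed between lymphedema and normal skin, Mcam, which is also in the endothelial identity list. This was 11.1% of the list, against 3.44% of all genes. SAM called 5 of the 9, all higher, or 55.6% against 21.1% of all genes. In 5 of the 9 the lymphedema arrays lay wholly above the normal arrays, which 23.6% of all genes did. The median difference was 0.48 and 7 of the 9 were positive. Rgs5, a pericyte gene, differed by 0.90 (adjusted p = 0.0918 in limma), and the contractile genes Acta2 and Cnn1 by 0.73 (adjusted p = 0.107) and 0.73 (adjusted p = 0.0928). The list's mean ran from −0.98 to −0.87 in normal skin, from −0.54 to −0.40 in lymphedema and from −0.91 to −0.37 in sham, with sham array 2 the lowest sham array.

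Of 6 fibroblast genes measured, Fbln1, an extracellular matrix glycoprotein, passed with a rise of 1.28 (adjusted p = 0.0235 in limma), and the other 5 did not, with Col1a1, Col3a1 and Pdgfra differing by 0.90, 0.73 and 0.66. The call was 16.7% of the list, against 3.44% of all genes. SAM called 4 of the 6, all higher, or 66.7% against 21.1% of all genes. In 5 of the 6 the lymphedema arrays lay wholly above the normal arrays, which 23.6% of all genes did. Keratinocyte genes gave 0 calls of 6 in limma, 2 at an unadjusted p under 0.05 and 2 by SAM, each 33.3% of the list against 20.5% and 21.1% of all genes, and a median of 0.26, and their list mean ran from 2.70 to 2.93 in normal skin, from 2.89 to 3.29 in lymphedema and from 2.87 to 3.05 in sham.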
